A study of Arabidopsis thaliana with 4 samples.

Results

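*PIN3*, *PIN4*, *PIN7*, *LAX3* and *WAT1* encode 5 Arabidopsis proteins that carry auxin across membranes, and their transcripts were followed through a short auxin treatment. The 5 genes were taken by name and locus, with earlier results of these data known, and each was read by 1 probe set of the 22746 tested. Counts of the 5 beside shares of all probe sets are therefore a description and not a test. The samples were intact light-grown seedlings of *Arabidopsis thaliana*, Columbia wild type (Col-0), at an age of 5 days. The mock group (2 arrays) was immersed in water for 2 h, and the IAA group (2 arrays) was immersed for the same time in water that held the auxin indole-3-acetic acid (IAA) at 10 µM. By their labels the groups differ in the added auxin alone, and neither carries a mutation or a transgene. Levels are expression values made by robust multi-array averaging (RMA) and given on a linear scale, 1 per probe set and array, and SDs are over the 2 arrays of a group. Fold changes and ratios between groups were taken from the log2 change, so they are ratios of geometric means. They can differ slightly from the ratio of the printed means.

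Auxin moves from cell to cell through carriers in the plasma membrane. PIN proteins carry it out of cells, and because many of them sit on one side of the cell they set the direction of flow. AUX1/LAX proteins take it up with protons. WAT1 lies in the membrane of the vacuole and releases stored auxin into the cytosol, and it is known for its part in making thick secondary walls in stem fibers. In seedlings *PIN3*, *PIN4* and *PIN7* act together in bending toward light and gravity, and *LAX3* is best known for the emergence of lateral roots.

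After IAA the transcripts of *PIN3*, *WAT1* and *PIN7* were higher, *PIN4* was higher in both IAA arrays but narrowly missed the rule for a call, and *LAX3* was not called. A probe set was called when limma gave it an adjusted p below 0.10 and log odds of a change (B) above 0. By this rule 3 of the 5 genes were called higher and 0 lower, beside 1.48% of all probe sets called higher and 0.374% called lower. At an adjusted p below 0.10 alone, 4 of the 5 passed upward, beside 3.87% of all probe sets. At an unadjusted limma p below 0.05 the same 4 passed upward and none downward, beside 10.1% of all probe sets higher and 10.6% lower.

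*PIN3* (AT1G70940, probe set 262263_at), a carrier that sends auxin sideways during tropic bending of root and hypocotyl, read 219.7 and 210.9 in the mock arrays and 760.8 and 824.1 in the IAA arrays. Both IAA arrays stood far above both mock arrays. The group means were 215.3 ± 6.21 and 792.5 ± 44.8 (SD, n = 2 in each group), a 3.68-fold rise with a 95% interval of 3.13-fold to 4.32-fold (log2 change 1.88 ± 0.09 SE, limma adjusted p = 0.000974). Over the 4 ways of setting 1 IAA array against 1 mock array, the ratio ran from 3.46 to 3.91. The rise was the 67th largest of the 22746. In whole seedlings a higher value can come from more RNA per cell or from more cells that hold the transcript, and these cannot be told apart.

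*WAT1* (AT1G75500, 262951_at) read 372.7 and 469.8 in mock and 1505 and 1283 in IAA. Its values were the most scattered of the 3 called genes, with the higher mock array 1.26 times the lower, yet the gap between the groups was wide. The mean rose from 421.2 ± 68.7 to 1394 ± 157 (SD, n = 2), which is 3.32-fold with a 95% interval of 2.58-fold to 4.28-fold (log2 change 1.73 ± 0.15 SE, limma adjusted p = 0.00638). Single arrays set against each other gave ratios from 2.73 to 4.04. This was the 79th largest rise.

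*PIN7* (AT1G23080, 264900_at), a carrier of the vascular tissue and the root cap, rose as well. It read 313.5 and 339.7 in mock and 603.3 and 653.0 in IAA, again with no overlap. Its mean went from 326.6 ± 18.5 to 628.2 ± 35.1 (SD, n = 2), a 1.92-fold rise with a 95% interval of 1.63-fold to 2.28-fold (log2 change 0.94 ± 0.10 SE, limma adjusted p = 0.012, B = 2.02). The call was lost without mock replicate 1 (limma adjusted p = 0.135), and without mock replicate 2 through B alone (limma adjusted p = 0.0936, B = -0.01). In both cases the log2 change stayed close to its full value, at 0.89 and 1.00.

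*PIN4* (AT2G01420, 266300_at), a carrier known from the root meristem, read 357.9 and 298.2 in mock and 577.4 and 552.0 in IAA. The lower IAA array was 1.54 times the higher mock array, so the groups did not overlap. The mean was 328.1 ± 42.2 in mock and 564.7 ± 18.0 in IAA (SD, n = 2), a ratio of 1.73 with a 95% interval of 1.41 to 2.11 (log2 change 0.79 ± 0.12 SE). Its limma adjusted p of 0.0348 met the limit and its B of -0.04 did not. Of the 2 genes not called, *PIN4* thus has an interval that lies above 1. It was called in only 2 of 15 other settings. These were an intensity trend in the variance prior (limma adjusted p = 0.0147, B = 1.03) and an adjusted p below 0.10 alone. With a replicate block it failed the limit for adjusted p as well (limma adjusted p = 0.157, B = -0.86). Without mock replicate 2 its log2 change was 0.66.

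*LAX3* (AT1G77690, 259680_at), the only uptake carrier of the 5, read 172.7 and 191.3 in mock and 190.1 and 153.6 in IAA. The groups overlapped, and the lowest and the second highest values both came from IAA arrays. Its mean was 182.0 ± 13.2 in mock and 171.9 ± 25.8 in IAA (SD, n = 2), a ratio of 0.94 with a 95% interval of 0.749 to 1.18 (log2 change -0.09 ± 0.13 SE, limma adjusted p = 0.747). The interval leaves room for a fall of up to 1.34-fold and a rise of up to 1.18-fold, and its upper end lies below the lower ends for the 4 other genes. Without IAA replicate 2 the log2 change was 0.065, so *LAX3* has no direction in these arrays.

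**Figure D1:**
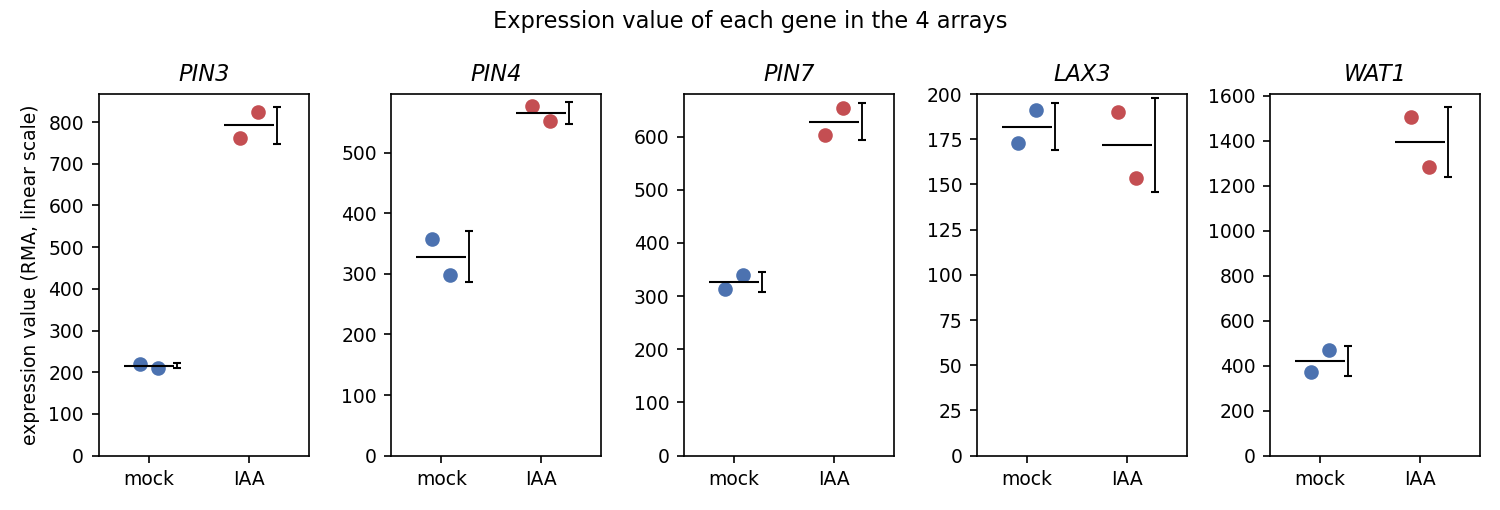
Expression value (RMA, linear scale from 0, a separate scale for each gene) of the 5 genes in the 2 mock and 2 IAA arrays; points are arrays with replicate 1 at the left, lines are means and bars SD. The IAA arrays lie above the mock arrays for PIN3 (760.8 and 824.1 against 219.7 and 210.9), PIN4, PIN7 and WAT1, and the groups overlap for LAX3.

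Both IAA arrays exceeded both mock arrays in 4 of the 5 genes, beside 24.5% of all probe sets. Both IAA arrays fell below both mock arrays in 0 of the 5, beside 29% of all probe sets. Of all probe sets 99.7% had a smaller log2 change than *PIN3* and 99.7% a smaller one than *WAT1*. The corresponding shares were 98.8% for *PIN7*, 98.4% for *PIN4* and 35.4% for *LAX3*. The median log2 change of the 5 genes was 0.94, against -0.02 over all probe sets.

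**Figure D2:**
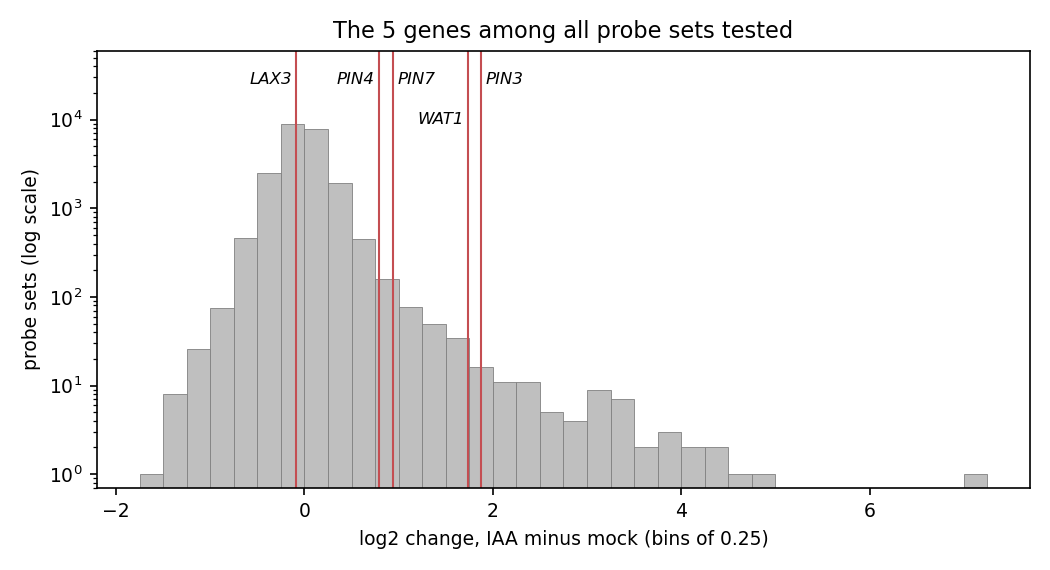
Number of probe sets (log scale) by log2 change, IAA minus mock, in bins of 0.25 over the 22746 tested, with a line at each of the 5 genes. LAX3 (-0.09) stands in the bulk of the distribution, while PIN4 (0.79) and PIN7 (0.94) stand in its upper flank and WAT1 (1.73) and PIN3 (1.88) farther out.

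The genes were next compared with each other by the size of their change, since levels read by different probe sets cannot be set against each other. Within each array the log2 value of one gene was subtracted from that of another, and the difference in IAA was set against that in mock. The log2 change of *PIN3* exceeded that of its close relative *PIN7* by 0.94, and by 0.85 to 1.02 over the 4 pairings of single arrays. It exceeded that of *PIN4* by 1.09 (0.90 to 1.28). Of the 3 PIN genes *PIN3* thus had the largest change in every pairing of arrays. *PIN4* and *PIN7* differed by -0.15, with pairings on both sides of 0 (-0.43 to 0.12), and *PIN3* and *WAT1* by 0.15 (-0.22 to 0.52). Neither of these neighboring pairs differed beyond the spread between arrays. *LAX3* stood below *PIN4* by 0.88 in log2 change (0.55 to 1.20). In 8 of the 10 pairs the arrays of the groups separated fully, with an exact two-sided permutation p of 0.333 each (0.417 after Benjamini-Hochberg adjustment over the 10). That is the smallest p that 2 arrays against 2 can give, so no difference between genes can pass a threshold in this design. The 10 pairs reuse the same genes and are not independent, and the share among other pairs of probe sets was not counted.

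**Figure D3:**
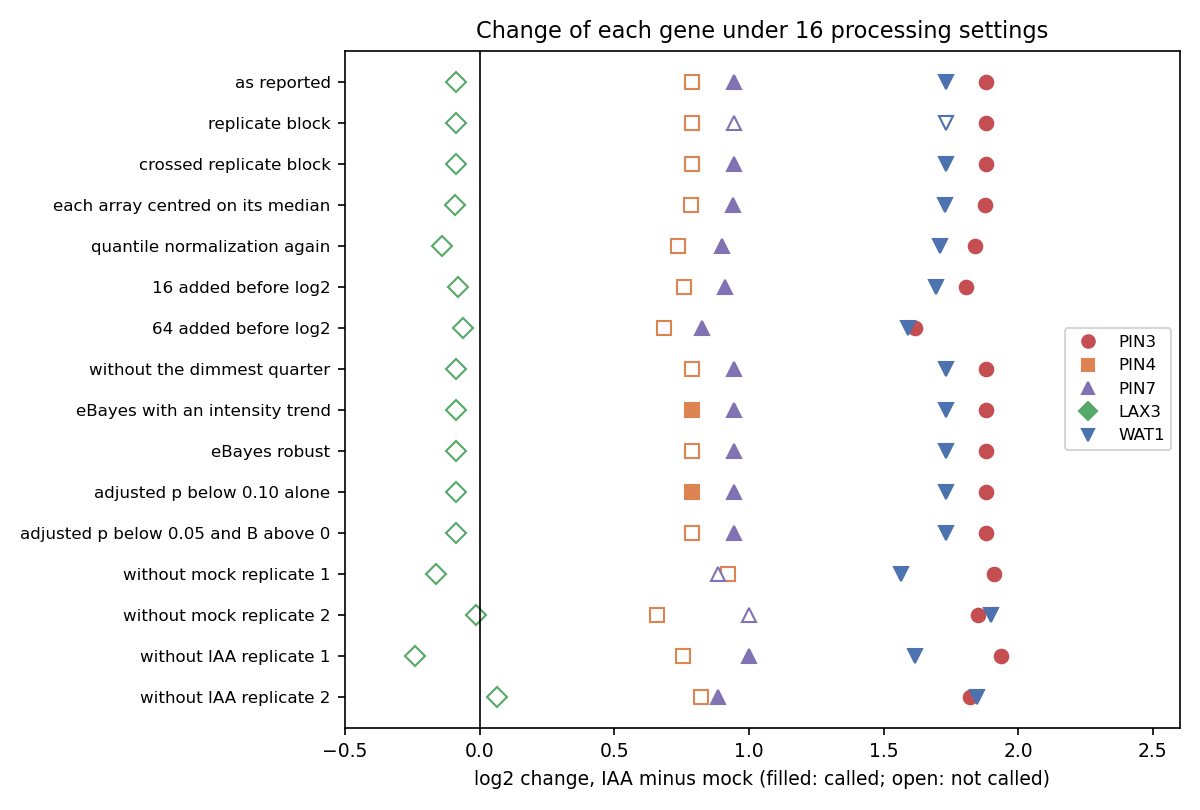
Log2 change, IAA minus mock, of the 5 genes as reported and under 15 other settings (1 row each); filled symbols were called by the rule in that setting and open symbols were not. PIN3 was called in all 15 other settings, WAT1 in 14, PIN7 in 12, PIN4 in 2 and LAX3 in 0.

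The remaining genes of auxin transport were counted from lists of carriers, their kinases and phosphatase subunits, NPY proteins and trafficking factors. These lists held 48 genes, of which 10 had a named probe set, the 5 above included. Of the other 5, 1 was called higher and 0 lower, beside 1.48% and 0.374% of all probe sets. An unadjusted limma p below 0.05 held for 3 of these 5 (*NPY5*, *NPY1* and *WAG2*, the last near background), beside 20.7% of all probe sets. *NPY5* was counted only because a list chosen on these arrays named it, and *NPY1* and *ABCB1* only through other lists of the study. These counts therefore cannot be weighed against the shares of all probe sets. *NPY5*, which encodes a relative of the phototropism protein NPH3 that acts beside PIN carriers in organ formation, was the one that rose. It read 536.7 and 529.7 in mock and 971.7 and 1043 in IAA, a 1.89-fold rise (log2 change 0.92 ± 0.09 SE, limma adjusted p = 0.0102), close to that of *PIN7*. Its probe set was named through the study's list of auxin-raised transcripts, which was chosen on these arrays, so it is no independent evidence of a direction. Its call was lost without mock replicate 1 (limma adjusted p = 0.123) and without mock replicate 2 (limma adjusted p = 0.117).

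Its relative *NPY1* read 176.5 and 175.3 in mock and 126.4 and 149.9 in IAA, a log2 change of -0.35 with a 95% interval of -0.63 to -0.08 that was not called (limma adjusted p = 0.168). *ABCB1*, an efflux carrier of the ABC class, stood at 340.2 ± 17.6 in mock and 364.4 ± 36.7 in IAA (SD, n = 2), with overlapping groups and a 95% interval of -0.18 to 0.37 on the log2 scale. The kinase genes *PID2* and *WAG2*, from the family that phosphorylates PIN proteins, read between 15.7 and 27.7 in all arrays. These values lie below 37.6, the highest value of 27 control probe sets for *Bacillus* genes, so no direction is given for them. That limit is a cautious one, set by 1 control probe set, while no other control read above 19.2 and the IAA values of *WAG2* (27.7 and 21.8) and 1 of those of *PID2* (22.2) lie above that. By contrast the mock means of the 5 carriers were 4.84 (*LAX3*) to 11.2 (*WAT1*) times the limit of 37.6.

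*WAT1* belongs to a large family of membrane proteins, the UMAMIT or MtN21-like proteins, several of which export amino acids. Of 30 listed genes of the family 3 were measured. Of these 1 (*WAT1*) was called higher and 1 lower, beside 1.48% and 0.374% of all probe sets, and 1 was not called. Both called genes were chosen or named with results of these arrays known, so the 3 do not show how the family responds. *UMAMIT17* read 87.2 and 97.2 in mock and 51.2 and 49.2 in IAA, a 1.83-fold fall (log2 change -0.87 ± 0.10 SE, limma adjusted p = 0.0154). This probe set, too, was named through a list chosen on these arrays, and the call was lost without mock replicate 1 (limma adjusted p = 0.108) and without mock replicate 2 (limma adjusted p = 0.134). *UMAMIT4* overlapped between the groups, at 110.3 and 143.6 in mock and 132.3 and 170.8 in IAA, and was not called (log2 change 0.26, 95% interval -0.19 to 0.70).

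**Figure D4:**
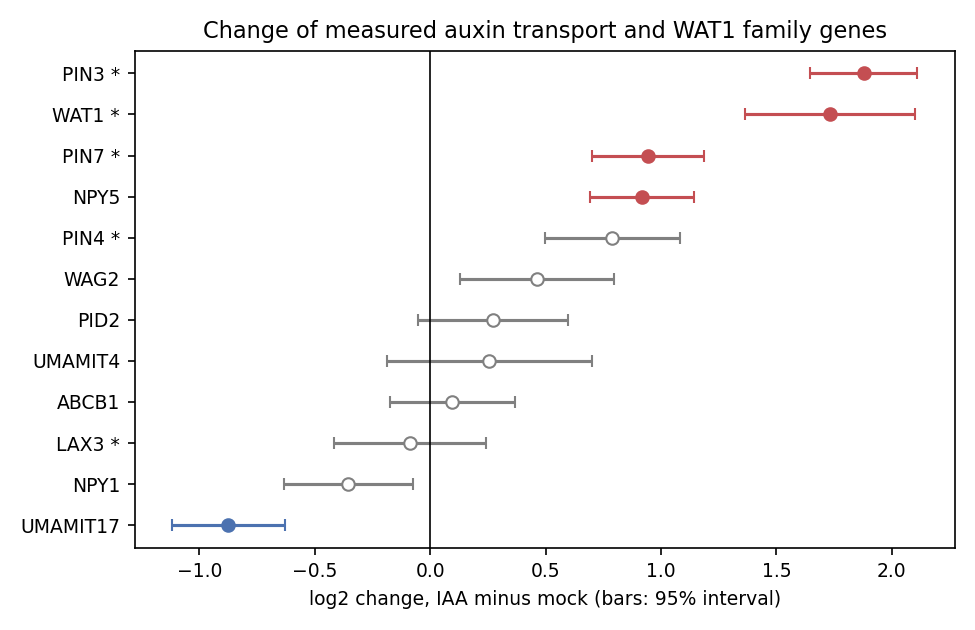
Log2 change, IAA minus mock, with limma's 95% interval for the 10 measured genes of auxin transport and the 3 measured genes of the WAT1 family (WAT1 is in both); filled symbols were called, and an asterisk marks the 5 genes described first. PIN3 and WAT1 stand apart at the top, PIN7, NPY5 and PIN4 follow with overlapping intervals, and UMAMIT17 is the one called lower.

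Only part of each family could be read. The platform's annotation table did not list 8730 of the tested probe sets, the 5 carriers among them, and all 5 were identified through the study's list of transcripts lowered by brassinosteroid (BR), a steroid growth hormone. That list came from other arrays, and none of its values was used. Of its 296 probe sets 24 (8.11%) were called higher after IAA and 2 (0.676%) lower, with a median log2 change of 0.03, beside 1.48%, 0.374% and -0.02 over all probe sets. Call rates go with the naming by construction. Probe sets outside the platform table were named only through the study's lists, and its auxin lists were chosen on these arrays. Of the 8245 probe sets left unnamed 1 was called higher and 0 lower, and that low count follows from how names were given. Without the 5 carriers the counts for the list of BR-lowered transcripts were 21 higher and 2 lower of 291. Ranked by log2 change within the list, *PIN3* was 7th, *WAT1* 8th, *PIN7* 19th, *PIN4* 30th and *LAX3* 189th. The other PIN, AUX1/LAX and PILS genes on the lists had no named probe set and were not analysed here, so these counts do not give the share of a family that responds.

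Genes with a pattern most like that of each carrier were found by the distance between log2 values, centered on each probe set's mean, over the 4 arrays and 13920 named probe sets. A like log2 change therefore follows from the search itself. The share of probe sets at such distances was not counted, and shared control was not tested. Nearest to *PIN3* were *ESE3* (distance 0.08) and *BEE1* (0.09), a bHLH factor of BR-promoted growth, with log2 changes of 1.89 and 1.83. Nearest to *WAT1* were the cytochrome P450 gene *CYP78A7* (0.12) and the gene AT2G41820 (0.14), and nearest to *PIN7* were AT1G07135 (0.08) and AT4G39670 (0.08). *PIN4* was matched most closely by *BRH1* (0.01), a RING finger gene that responds to BR, and by *GATA23* (0.03), a factor that primes lateral root founder cells. *BRH1* read 444.1 and 371.6 in mock and 716.5 and 692.5 in IAA. Its log2 change of 0.79 is that of *PIN4*, but its B of 0.08 put it just inside the rule that left *PIN4* out. *LAX3* was nearest to AT1G14710 and AT2G33320, both at a distance of 0.02 and not called. *CYP78A7* and *GATA23* were named through lists chosen on these arrays.

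Of the 5 genes 4 lie on chromosome 1 and *PIN4* on chromosome 2. Among the 20 protein-coding genes that flank them, 2 on each side, 10 were measured and limma called 0. Of all probe sets 1.48% were called higher and 0.374% lower, so 0 calls among 10 do not set the neighbors apart. An unadjusted limma p below 0.05 held for 2 of the 10, beside 20.7% of all probe sets. The largest change of a neighbor was 0.91, in AT1G75490 beside *WAT1* (limma adjusted p = 0.0876, B = -2.17), a gene singled out after its value was seen.

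Auxin response and tissue makeup were checked in the same arrays. All 4 auxin response genes looked up (*GH3.3*, *IAA19*, *IAA29* and *SAUR15*) were called higher, beside 1.48% of all probe sets. One of them, *IAA19*, was named through a list chosen on these arrays, and *SAUR15* through the study's BR lists. *IAA29*, named by the platform table, read 36.8 and 30.9 in mock and 890.2 and 934.7 in IAA. The mock means of *IAA29* (33.8), *GH3.3* (27.5) and *SAUR15* (23.3) lie below the background limit of 37.6, so the size of their rise is uncertain. The green tissue genes *RCA* and *PRK* read between 4817 and 9994 and the root gene *PYK10* between 2325 and 2943, and none of the 3 was called. Of the 4 root genes measured, 2 were called lower, beside 0.374% of all probe sets. These were *TIP2;3* (from 730.7 to 334.2, limma adjusted p = 0.00865) and *CASP5* (from 105.5 to 53.4, limma adjusted p = 0.0182). The first was named through a list chosen on these arrays and the second through the study's BR lists. The fourth, *EXPA7*, had means of 127.1 ± 6.59 in mock and 95.9 ± 1.34 in IAA (SD, n = 2) and was not called (log2 change -0.40, 95% interval -0.63 to -0.18). Its limma adjusted p of 0.0922 met the limit and its B of -2.30 did not. The summed level of the 4 was 3337 and 3939 in mock and 3215 and 2785 in IAA, most of it *PYK10*. Without *PYK10* it was 930.2 and 996.3 in mock and 507.3 and 459.8 in IAA. Most of that was *TIP2;3*, at 692.3 and 769.2 in mock and 352.0 and 316.4 in IAA. The fall of this sum is thus largely that of a gene measured only because a list chosen on these arrays named it. It does not stand for root genes in general. Without mock replicate 1 and without mock replicate 2 the *CASP5* call was lost (limma adjusted p = 0.169 and 0.142). Several of the carriers are expressed in roots, and the part of these root genes' fall in the carriers' values was not tested. No vascular marker or reference gene on the lists had a named probe set.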

How the data were processed

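Seedling RNA was measured on Affymetrix arrays, 2 for each group. Groups came from the sample descriptions and replicate numbers from the titles, and no source used here ties a number to a shared culture. The deposited intensity values are linear. The authors made them with rma (Bioconductor affy), that is, background correction, quantile normalization and summary by probe set. The rma version and which arrays were normalized together are not given in the sources used here, and a shift shared by most transcripts would be hidden. The scale was judged from the values, whose medians lay between 62.2 and 63.5. Arrays of a group correlated at r of 0.994 or more across probe sets. The study describes independent biological replicates, and the number of arrays limits precision.

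With 64 control probe sets set aside, log2 values of the other 22746 (no pseudocount) were fitted by limma 3.58.1 (lmFit, eBayes; R 4.3.3), with treatment as the term and Benjamini-Hochberg adjustment over all. The rule for calls is that of the study's methods. Probe sets were named through the platform table and RefSeq (assembly TAIR10.1), and otherwise through the study's lists, whose values were not used. Each locus counted through its brightest probe set.

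The members and lists were chosen with earlier results of these data known. The text names every member, each called gene of the transport and WAT1 family lists, and the 2 probe sets most like each member, and genes not called were added as examples. Alternatives were a replicate block, normalization, pseudocounts of 16 and 64, leaving out the dimmest 25% of probe sets, the variance prior, the call rule and leaving out each array. Sequences were not used here.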

Additional observations from a re-analysis of the deposited data

How the results depend on the processing

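*PIN3* kept its call in all 15 other settings, with log2 changes from 1.62 to 1.94, and *WAT1* in 14 (1.56 to 1.90). With a replicate block *WAT1* (1.73, limma adjusted p = 0.115) and *PIN7* (0.94, limma adjusted p = 0.107) were not called, and 1 of the 5 members, 1 transport gene and 0 genes of the WAT1 family in either direction were called. In all, 145 probe sets were then called higher and 10 lower, against 337 and 85. Deviations of same-numbered arrays from their group means had a weak negative correlation (r = -0.194 across probe sets). No source used here ties a number to a shared culture, and the numbers were not taken as pairs. With the crossed pairing, chosen after seeing the data, 299 were called higher and 86 lower, and 3 members. *PIN4* at 0.79 was called with an intensity trend and at an adjusted p below 0.10 alone, which gave 880 and 513 calls. Leaving out single arrays gave log2 changes of 1.82 to 1.94 for *PIN3*, 0.66 to 0.92 for *PIN4*, 0.89 to 1.00 for *PIN7*, -0.24 to 0.065 for *LAX3* (whose sign turned to positive without IAA replicate 2) and 1.56 to 1.90 for *WAT1*. Without mock replicate 1 the change of *PIN4* (0.92) exceeded that of *PIN7* (0.89), and without mock replicate 2 that of *WAT1* (1.90) exceeded that of *PIN3* (1.85), as it did without IAA replicate 2 (1.85 against 1.82). Calls then ran from 158 to 397 higher and from 20 to 162 lower in all, from 2 to 3 among the members, from 2 to 4 higher among transport genes and from 0 to 1 lower in the WAT1 family. The lowest counts of increases came without mock replicate 1 (158) and mock replicate 2 (196), and the highest count of decreases without IAA replicate 2. The cause was not tested. A group left with 1 array was assumed to vary like the other.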
